A study of Mus musculus with 18 samples.

Results

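The liver receives growth hormone (GH) from the pituitary and answers by releasing insulin-like growth factor 1 (IGF1) into the blood. The 10 genes described here belong to that axis and were listed by name, with no measured value in the rule. They are the GH receptor gene Ghr, the transcription factor gene Stat5b, the feedback genes Socs2, Cish and Bcl6, the hormone gene Igf1, its serum partner Igfals, and the IGF binding protein genes Igfbp1, Igfbp2 and Igfbp3. All 10 were among the 16245 genes of the table, and all 10 kept an adjusted p in every comparison, with a lowest estimated count of 56 in any library.

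The livers came from 18 wild-type (WT) C57BL/6 mice, which the study's methods give as males on the C57BL/6J background. All were put on a NASH diet, a fat- and fructose-rich diet that produces steatohepatitis, and housed at about 29 °C from 8 weeks of age. The Vehicle group (6 mice) received vehicle, the GDF15 group (6 mice) had recombinant GDF15 under the skin once a day, and the PairFed group (6 mice) was offered the amount eaten by the treated mice on the previous day. GDF15 is a stress cytokine that lowers food intake. The dose given to each mouse and the length of treatment are not stated in the labels, mice were caged singly, and the methods give the fed state at death. The labels give no time of sampling. Libraries held 16508864 to 35301853 estimated counts.

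GH binds its receptor on hepatocytes and activates the kinase JAK2, which phosphorylates STAT5B. STAT5B switches on Igf1 and Igfals, and also Socs2 and Cish, whose products damp the same signal, while Bcl6, a transcriptional repressor, is known as a gene that GH lowers. In serum, IGF1 travels mostly in a ternary complex with IGFBP3 and the acid labile subunit (the Igfals product). IGFBP1 and IGFBP2 carry it in smaller complexes, and Igfbp1 transcription is restrained by insulin through FOXO1. GH is secreted in pulses, so liver genes that answer within minutes can differ between animals killed at different moments, and in rodents the pulse pattern differs between the sexes and sets sex-biased liver genes.

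Promoter sequence of the axis genes was read for letters that STAT5 and FOXO1 are known to prefer. RefSeq promoters (GRCm38.p6, 250 bases before to 50 after the start) held 9 of the 10 genes in 15 windows. Socs2 had no entry and was not searched. The palindrome TTCNNNGAA, the core of a STAT site, was searched on both strands and lay in 8.3% of 32851 promoters. It was found in windows of 3 axis genes, Cish, Bcl6 and Igfals. The letters CAAAACA, the core of an insulin response element, lay in 6.28% of promoters and in 1 axis gene, Igfbp1. Both shares count promoters, and a gene can have more than 1 window, so they are not a background for counts of genes. Capitals mark the matches in the stretches shown. The first is Cish at chr9:107296654-107296683 (plus strand), inside the first untranslated exon of the GENCODE model, with matches that begin at positions 1 and 12 after the RefSeq start. The second is Bcl6 at chr16:23981359-23981458 (minus strand), in the first intron of the GENCODE model and upstream of an internal RefSeq start, with matches 168, 122 and 88 bases before that start. The third is Igfals at chr17:24878163-24878192 (plus strand), with a match 58 bases before the second of its RefSeq starts. The fourth is Igfbp1 at chr11:7197657-7197716 (plus strand), upstream of the gene, with a match 108 bases before the start.
Cish: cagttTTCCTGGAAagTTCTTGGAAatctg
Bcl6: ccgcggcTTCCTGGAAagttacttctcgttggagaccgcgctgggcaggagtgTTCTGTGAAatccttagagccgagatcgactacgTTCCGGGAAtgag
Igfals: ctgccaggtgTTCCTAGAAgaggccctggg
Igfbp1: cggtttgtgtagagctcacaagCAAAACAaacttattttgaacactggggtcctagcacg
A match describes letters in these windows and is not evidence of binding.

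With GDF15, the livers held more Igfbp2, Igf1, Igfals and Ghr RNA and less Igfbp3 RNA than with vehicle, so the ligand and the subunit of its complex rose while the third partner of that complex fell. Of the 10 genes, 4 were higher and 1 was lower at an adjusted p under 0.05 (DESeq2 Wald test, Benjamini-Hochberg adjustment over all genes). Over all 14667 genes tested, 33.3% passed in either direction, 15.8% higher and 17.5% lower. Against pair-fed mice 3 of the 10 were higher (Igfbp2, Igf1 and Igfbp1) and 1 was lower (Igfbp3), beside 27.1% of 14353 genes in either direction, 13.3% higher and 13.8% lower. An absolute log2 fold change above 1 as well was reached by Igfbp2 against vehicle (1 of 10, and 6.27% of all genes) and by Igfbp2 and Igfbp1 against pair-fed (2 of 10, and 3.37% of all genes). The 2 comparisons share the GDF15 libraries and are not independent. Nothing about the axis as a whole is read from these counts, and what follows is about its members.

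**Figure D1:**
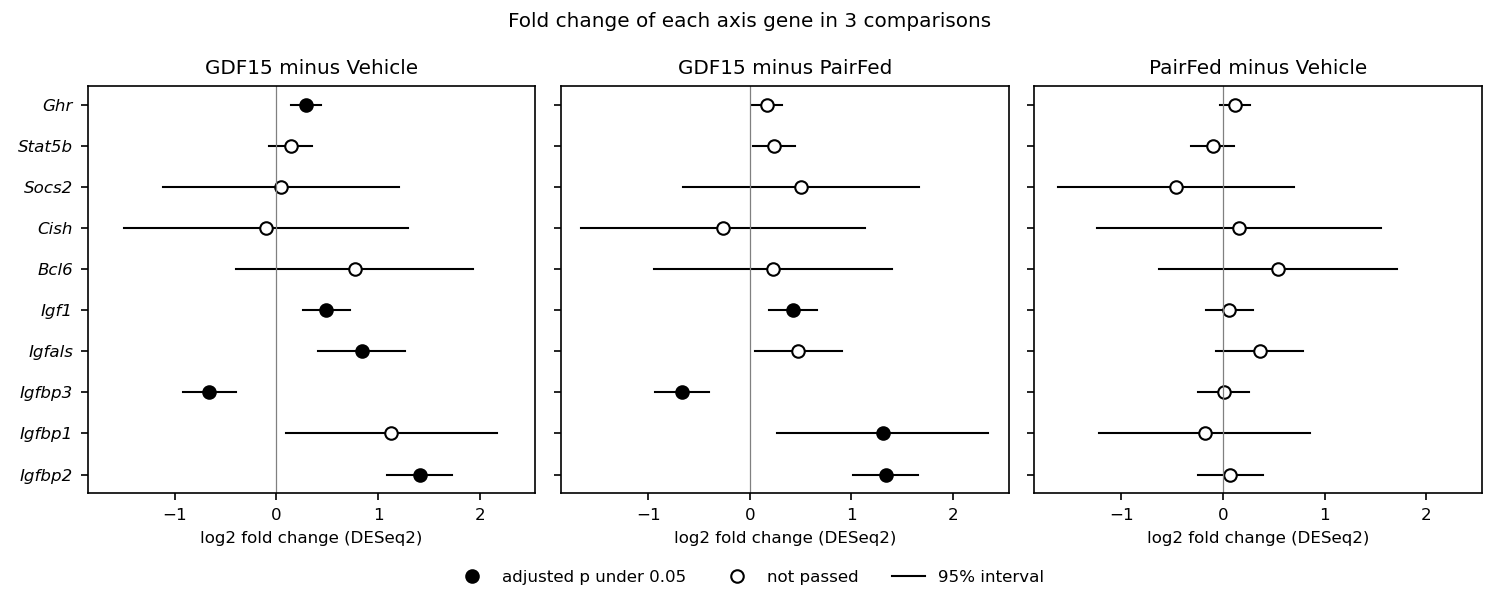
DESeq2 log2 fold change of each axis gene (horizontal axis) with its 95% interval, for GDF15 minus Vehicle, GDF15 minus PairFed and PairFed minus Vehicle; filled points have an adjusted p under 0.05. Igfbp2 at 1.41 and 1.34 and Igfbp3 at -0.66 and -0.67 keep short intervals on 1 side of 0 in both GDF15 comparisons, whereas the intervals of Socs2, Cish and Bcl6 span 0 widely.

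Igf1, the hormone itself (chr10:87858265-87937042 in GRCm38, GENCODE), had normalized counts of 4389 to 6534 in vehicle mice with a median of 5291. In GDF15 mice they ran from 6345 to 8772 with a median of 7462, and in pair-fed mice from 4140 to 6665 with a median of 5519. GDF15 mice were the high group, and 5 of 6 lay above every vehicle mouse and 5 of 6 above every pair-fed mouse. Treated mice averaged 7452 ± 832 (SD, n = 6), vehicle mice 5303 ± 715 and pair-fed mice 5540 ± 1043. The difference from vehicle was 0.49 ± 0.12 on the log2 scale (SE, 1.41-fold, adjusted p = 0.000341), and from pair-fed 0.43 ± 0.12 (1.34-fold, adjusted p = 0.00262). In a whole-tissue sample a change in the number of cells of a type and a change in the RNA of each cell cannot be told apart.

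Igfals encodes the acid labile subunit, which holds IGF1 and IGFBP3 in the long-lived complex and is made by hepatocytes. Its normalized counts were 731.4 to 1635 (median 989.0) with vehicle, 1467 to 2578 (median 1656) with GDF15 and 831.7 to 1850 (median 1375) with pair-feeding. The GDF15 mice were above all but 1 of the vehicle mice, Vehicle replicate 3 at 1635, and overlapped with the upper pair-fed mice. The rise against vehicle was 0.84 ± 0.22 (log2, SE, 1.80-fold, adjusted p = 0.000886), and 4 of 6 GDF15 mice exceeded every vehicle mouse. Against pair-fed the difference was 0.48 ± 0.22 with an adjusted p of 0.0863, which did not pass (0.0305 without PairFed replicate 4). Pair-fed mice themselves averaged 1339 ± 441 against 1041 ± 320 in vehicle mice, a difference of 0.36 with a 95% interval of -0.07 to 0.79.

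Igfbp3, the main IGF carrier of serum, is known to be made in liver largely by non-parenchymal cells. It had 360.7 to 536.2 normalized counts (median 437.3) with vehicle, 164.4 to 363.1 (median 282.3) with GDF15 and 398.6 to 484.2 (median 452.3) with pair-feeding. The highest GDF15 mouse, at 363.1, was below all pair-fed mice and above only the lowest vehicle mouse. The fall was -0.66 ± 0.13 (log2, SE) against vehicle, or 0.633-fold, with an adjusted p of 1.37e-05. Against pair-fed it was -0.67 ± 0.13, or 0.630-fold, with an adjusted p of 1.48e-05 and no overlap between the groups. Genes whose groups did not overlap made up 14.7% of 10883 genes whose normalized counts averaged 50 or more, in the comparison with vehicle and 11.8% in that with pair-fed. Among the axis genes they were Igfbp2 and Ghr against vehicle and Igfbp2 and Igfbp3 against pair-fed. Igfbp3 lies 3539 bases from Igfbp1 on chromosome 11 (chr11:7206086-7213923 and chr11:7197782-7202546, opposite strands). The pair gave calls in opposite directions against pair-fed mice. That of Igfbp1 was at the edge of the threshold (DESeq2 adjusted p = 0.04998) and was lost in 14 of 18 fits with 1 mouse left out.

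Many markers of other cell types of the tissue were also lower. Over all genes 17.5% were lower against vehicle and 13.8% against pair-fed. Stellate cell markers fell in 8 of 10 genes against vehicle and 7 of 10 against pair-fed, and their summed normalized count was 5443 to 9415 with GDF15, 8805 to 11270 with vehicle and 9625 to 11360 with pair-feeding, a difference of -0.38 and -0.39 on the log2 scale. Kupffer cell and macrophage markers were lower in 6 of 10 and 5 of 10, at a sum of 2579 to 5075 with GDF15, 3594 to 6897 with vehicle and 3633 to 6036 with pair-feeding. The 4 that did not pass against vehicle were Clec4f (0.15 on the log2 scale), Timd4 (1.03), Marco (0.73) and Vsig4 (-0.06). This list thus did not move as 1. Cholangiocyte markers were lower in 7 of 8 and 1 of 8 and lymphocyte markers in 2 of 8 and 3 of 8. Of 10 sinusoidal endothelium markers, 2 were lower and 1 was higher against vehicle and 1 was lower against pair-fed. No marker was at 0 in every sample of any list. The part of these cell types in the fall of Igfbp3 was not tested.

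Hepatocyte markers rose in the same mice, 8 of 12 in each GDF15 comparison, where 15.8% and 13.3% of all genes were higher. Their sum was 2638000 to 3100000 normalized counts with GDF15, 2038000 to 2450000 with vehicle and 1880000 to 2627000 with pair-feeding. When libraries were instead scaled on the hepatocyte list alone, the median of all genes moved to -0.32 against vehicle and -0.34 against pair-fed, and calls became 353 higher and 8222 lower against vehicle (4.12% higher, where the usual scaling gave 47.6%) and 251 higher and 8558 lower against pair-fed (2.85%, where it gave 49.1%). On that scale Igf1 kept a difference of 0.18 against vehicle (adjusted p = 0.132) and 0.09 against pair-fed (adjusted p = 0.437), so a rise beyond that of the hepatocyte list was not detected. Igfals kept 0.55 against vehicle (adjusted p = 0.0131). Igfbp3 fell further, by 0.97 and 1.00 on the log2 scale, and Igfbp2 remained higher by 1.101 and 1.012, with adjusted p of at most 3.68e-12 against vehicle and 1.98e-10 against pair-fed for Igfbp2.

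**Figure D2:**
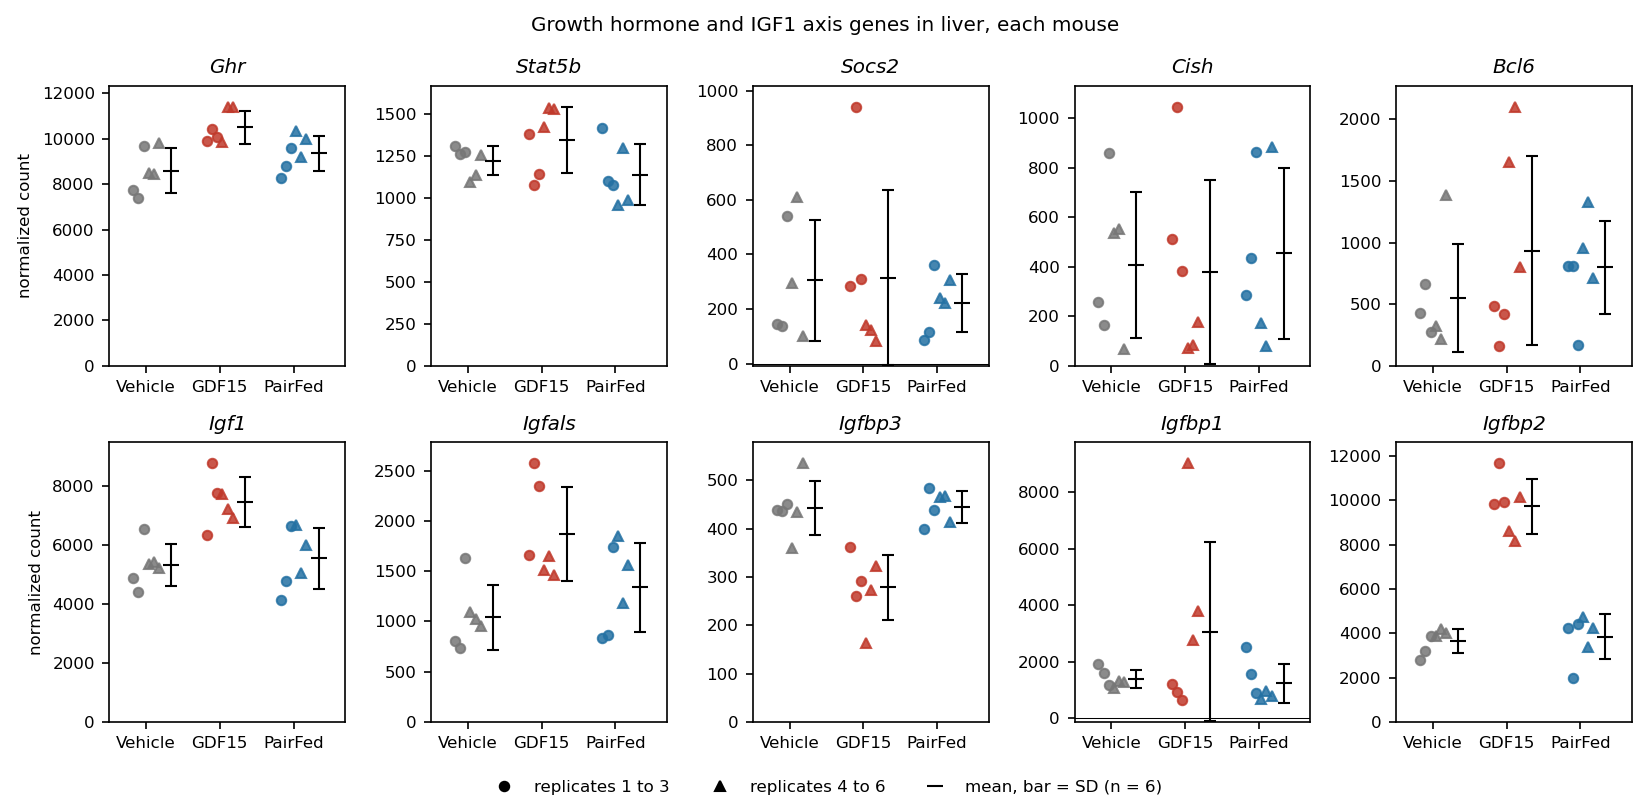
Normalized count of each axis gene (vertical axis, from 0) in every mouse of the Vehicle, GDF15 and PairFed groups, with circles for replicates 1 to 3, triangles for 4 to 6, and the mean with its SD (n = 6) in black. The GDF15 mice stand clear of the others for Igfbp2 (8156 to 11690), sit low for Igfbp3, and split for Igfbp1 between 629.5 to 1198 and 2772 to 9044.

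Igfbp2 gave the largest fold change among the axis genes that passed against vehicle. It encodes a carrier that binds IGF1 and IGF2 outside the ternary complex and is known as a hepatocyte product (chr1:72824503-72852474). Vehicle mice had 2800 to 4214 normalized counts (median 3872), GDF15 mice 8156 to 11690 (median 9895) and pair-fed mice 1980 to 4753 (median 4260). The lowest GDF15 mouse was above the highest of the 12 other mice. The difference was 1.41 ± 0.16 (log2, SE, 2.66-fold, adjusted p = 6.97e-16) against vehicle and 1.34 ± 0.16 (2.53-fold, adjusted p = 3.42e-14) against pair-fed. It passed under every alternative listed in the closing section. The ratio of Igfbp2 to Igfbp3 counts, which is not corrected for transcript length and can be read only between groups, averaged 36.6 ± 9.88 (SD, n = 6) in GDF15 mice, 8.37 ± 1.63 in vehicle mice and 8.77 ± 2.602 in pair-fed mice. Its lowest value with GDF15 was 27.2 and its highest with vehicle or pair-feeding was 10.8. The ratio of Igfbp2 to Igf1 was 1.31 ± 0.176 in GDF15 mice, 0.694 ± 0.0891 in vehicle mice and 0.702 ± 0.196 in pair-fed mice.

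Igfbp1, the carrier that falls when insulin rises, was split within the GDF15 group. Normalized counts were 1080 to 1936 (median 1295) with vehicle, 629.5 to 9044 (median 1985) with GDF15 and 688.6 to 2523 (median 916.3) with pair-feeding. The GDF15 mice numbered 1 to 3 had 1198, 935.8 and 629.5, within or below the vehicle range, and those numbered 4 to 6 had 9044, 2772 and 3797, all above every vehicle and pair-fed mouse. No label says what the replicate numbers stand for. The split was not particular to Igfbp1: within the GDF15 group mice 1 to 3 and mice 4 to 6 did not overlap for 6 of the 10 axis genes (Stat5b, Socs2, Cish, Bcl6, Igfals and Igfbp1), and for 25.05% of the 10883 genes averaging 50 or more. The same count was 2 of 10 in vehicle mice (7.305% of genes) and 0 of 10 in pair-fed mice (19.9% of genes). The part of the replicate numbers in these values was not tested. Over all mice the difference was 1.13 ± 0.53 (log2, SE) against vehicle with an adjusted p of 0.0861, and 1.31 ± 0.53 against pair-fed with an adjusted p of 0.04998, at the edge of the threshold. Without GDF15 replicate 3 the value against vehicle was 1.34 with an adjusted p of 0.0279. Without GDF15 replicate 4 the value against pair-fed was 0.60 with an adjusted p of 0.333, and edgeR's quasi-likelihood test gave an adjusted p of 0.0584. In fits of replicates 1 to 3 alone it was -0.77 against vehicle (adjusted p = 0.194) and -0.84 against pair-fed (adjusted p = 0.144). In fits of replicates 4 to 6 alone it was 2.09 (adjusted p = 0.000119) and 2.68 (adjusted p = 3.92e-07). The direction thus depended on which mice were fitted.

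Ghr, the receptor through which the liver senses GH (chr15:3317760-3583492, minus strand), had 7386 to 9834 normalized counts with vehicle (median 8469), 9853 to 11420 with GDF15 (median 10260) and 8281 to 10350 with pair-feeding (median 9388). The GDF15 and vehicle groups did not overlap, though the nearest mice of each lay at 9853 and 9834. The difference was 0.29 ± 0.08 on the log2 scale (SE, 1.22-fold, adjusted p = 0.00115) against vehicle and 0.17 ± 0.08 (adjusted p = 0.0902, and 0.0452 without PairFed replicate 4) against pair-fed. With libraries scaled on the hepatocyte list the direction turned, to -0.02 against vehicle (adjusted p = 0.783) and -0.17 against pair-fed (adjusted p = 0.0186).

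Stat5b, which carries the receptor's signal to the nucleus, had 1097 to 1311 normalized counts with vehicle (median 1260), 1077 to 1537 with GDF15 (median 1404) and 957.4 to 1420 with pair-feeding (median 1089). All 3 groups overlapped. The difference was 0.14 ± 0.11 (log2, SE) against vehicle with an adjusted p of 0.325 and a 95% interval of -0.07 to 0.35, and 0.24 ± 0.11 against pair-fed with an adjusted p of 0.0775. Without PairFed replicate 1, PairFed replicate 5, GDF15 replicate 2 or GDF15 replicate 3 the adjusted p against pair-fed was 0.0129, 0.0453, 0.0207 or 0.0368. With hepatocyte scaling the sign turned, to -0.18 and -0.11. These values are of RNA, while STAT5B is switched on by phosphorylation, which was not measured.

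The feedback genes differed more between mice of 1 group than between groups. Socs2, a suppressor that docks on the GH receptor, ran from 101.0 to 612.4 normalized counts (median 220.3) with vehicle, 83.2 to 942.0 (median 214.3) with GDF15 and 88.3 to 361.2 (median 230.3) with pair-feeding. Cish, a STAT5-induced inhibitor of the same family, ran from 68.8 to 857.7 (median 396.0), 71.9 to 1046 (median 281.1) and 80.6 to 883.0 (median 360.3). Bcl6 ran from 218.3 to 1389 (median 376.1), 156.0 to 2103 (median 641.9) and 168.1 to 1329 (median 808.7). Within the GDF15 group mice 1 to 3 lay apart from mice 4 to 6 in each of the 3 genes, at 286.0 to 942.0 against 83.2 to 142.6 for Socs2, 383.9 to 1046 against 71.9 to 178.4 for Cish and 156.0 to 481.0 against 802.7 to 2103 for Bcl6. In each gene all 3 groups overlapped over most of their range, and the highest mouse of a group had 4.09 to 14.6 times the count of the lowest.

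None of the 3 passed in any comparison. Against vehicle the log2 differences were 0.04 ± 0.59 for Socs2 (SE, adjusted p = 0.969), -0.10 ± 0.72 for Cish (adjusted p = 0.937) and 0.77 ± 0.60 for Bcl6 (adjusted p = 0.336). Their 95% intervals reached from -1.12 to 1.21, from -1.50 to 1.30 and from -0.40 to 1.94. With 6 mice a group, rises of over 1 log2 unit thus lay within all 3 intervals. Falls of that size lay within those of Socs2 and Cish but not of Bcl6. Against pair-fed the differences were 0.50 for Socs2 (adjusted p = 0.570), -0.26 for Cish (adjusted p = 0.827) and 0.23 for Bcl6 (adjusted p = 0.816).

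The pooled SD within groups, on the log2(normalized count + 1) scale, was 1.06 for Socs2, 1.41 for Cish and 1.14 for Bcl6. These were larger than in 99.6%, 99.9% and 99.7% of the 10883 genes whose normalized counts averaged 50 or more, where the median SD was 0.149. Igfbp1 (0.942, larger than in 99.5%) and Igfals (0.423, larger than in 94.9%) followed. Ghr at 0.131 was below the median gene, and Stat5b (0.190), Igf1 (0.215), Igfbp3 (0.257) and Igfbp2 (0.320) lay between 65.8% and 88.6%. With mice 1 to 3 and 4 to 6 of each group centred separately the SD was 0.933 for Socs2, 1.24 for Cish and 0.964 for Bcl6, larger than in 99.5%, 99.8% and 99.6% of genes (median 0.138), and 0.546 for Igfbp1, larger than in 98.0%.

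The spread of the feedback genes was shared between them. After each group was centred on its own mean, Cish and Bcl6 ran against each other over the 18 mice (Pearson r = -0.90, Spearman rho = -0.91, permutation p within groups = 1e-05 for each, the smallest the permutations can give, and 0.000225 after Benjamini-Hochberg adjustment over 45 pairs). The correlation was -0.96 within vehicle mice (exact permutation p = 0.00417, n = 6), -0.98 within GDF15 mice (exact p = 0.00556) and -0.73 within pair-fed mice (exact p = 0.0819). Without the 2 mice farthest from the median of Cish it was -0.88. With hepatocyte scaling it was -0.88, and with replicates 1 to 3 and 4 to 6 centred separately -0.83. Both values of a pair come from 1 library and share its scaling.

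Socs2 ran with Cish (r = 0.72, rho = 0.77, adjusted permutation p = 0.0121 and 0.00773) and against Bcl6 (r = -0.77, rho = -0.81, adjusted permutation p = 0.00513 and 0.00432). Within vehicle mice these were 0.91 and -0.90 (exact permutation p = 0.0181 and 0.00972, n = 6) and within GDF15 mice 0.85 and -0.86 (exact p = 0.0292 and 0.0236). Within pair-fed mice they were 0.27 and -0.46 (exact p = 0.599 and 0.411), and a difference between the groups was not tested. Vehicle replicates 3 and 5, GDF15 replicate 2 and PairFed replicate 3 were high for Socs2 and Cish and low for Bcl6 within their groups. Vehicle replicate 6 and GDF15 replicates 4 and 5 showed the opposite, with Cish at 68.8, 71.9 and 81.8 and Bcl6 at 1389, 1650 and 2103. The serum complex genes followed the same ordering in part, since Socs2 also ran with Igfals (r = 0.79, rho = 0.77, adjusted permutation p = 0.0009 and 0.00428) and with Igf1 (r = 0.68, rho = 0.66, adjusted permutation p = 0.00997 and 0.0255). Without the 2 mice farthest from the median of Socs2 these correlations were 0.69 with Cish, -0.74 with Bcl6, 0.77 with Igfals and 0.65 with Igf1.

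**Figure D3:**
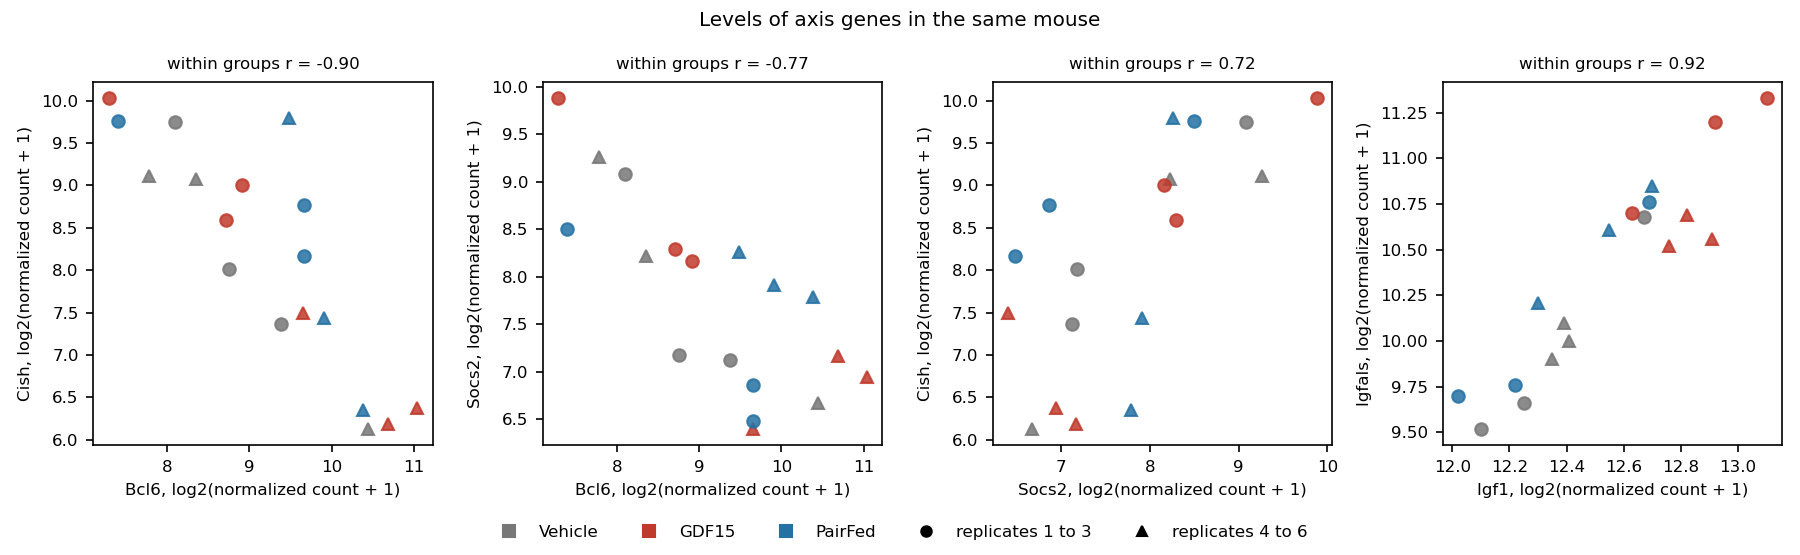
Level of 1 axis gene against another in the same mouse, both axes log2(normalized count + 1), with color for the group and shape for replicates 1 to 3 (circles) or 4 to 6 (triangles); the title of each panel gives Pearson's r after centring each group. Over the 18 mice Cish falls as Bcl6 rises (r = -0.90) and Igfals rises with Igf1 (r = 0.92).

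Igf1 and Igfals had the largest Pearson's r of the 45 pairs in size (r = 0.92, rho = 0.89, adjusted permutation p = 0.000225 for each), at 0.98 within vehicle mice (exact permutation p = 0.00278), 0.71 within GDF15 mice (exact p = 0.126) and 0.97 within pair-fed mice (exact p = 0.00139). It was 0.89 without the 2 mice farthest from the median of Igf1. Igfbp1 ran against Igfals (r = -0.68, rho = -0.77, adjusted permutation p = 0.0009 and 0.0018). It also ran against Socs2 (r = -0.66, rho = -0.67, adjusted permutation p = 0.0241 and 0.0255). Without the 2 mice farthest from the median of Igfals or of Socs2 these were -0.73 and -0.58. GDF15 replicates 3 and 4, the farthest for Igfbp1, were kept in both. With the replicate numbers 1 to 3 and 4 to 6 centred separately the relation of Igfbp1 to Igfals was -0.63 and that to Socs2 was -0.32. Stat5b ran against Socs2 (r = -0.69, rho = -0.62, adjusted permutation p = 0.0121 and 0.0305), Igfals (r = -0.68, rho = -0.66, 0.0230 and 0.0304) and Igf1 (r = -0.65, rho = -0.61, 0.0271 and 0.0467), and with Igfbp1 (r = 0.70, rho = 0.71, 0.0241 and 0.0294). Without the 2 mice farthest from the median of Stat5b these were -0.55, -0.55, -0.48 and 0.60, and with the replicate numbers centred as above -0.51, -0.58, -0.71 and 0.42. In all, 15 of 45 pairs passed an adjusted permutation p of 0.05 by both measures. Igfbp3 was in none of them.

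Pair-feeding alone moved no axis gene past the threshold. Of the 10, 0 passed against vehicle in DESeq2 and 0 in edgeR, and 0 had an unadjusted p under 0.05 in either tool. Over all 16242 genes tested, 0% passed in DESeq2, with 718 at an unadjusted p under 0.05, and 0 passed in edgeR with 620. The lowest unadjusted p of an axis gene was 0.0984, for Igfals (adjusted p = 0.998). The log2 difference between pair-fed and vehicle mice was 0.07 for Igfbp2 with a 95% interval of -0.25 to 0.39, 0.01 for Igfbp3 (-0.25 to 0.26), 0.06 for Igf1 (-0.17 to 0.30) and 0.12 for Ghr (-0.03 to 0.27). For Igfbp2 and Igfbp3 these intervals do not reach the differences seen with GDF15. For Socs2, Cish, Bcl6 and Igfbp1 the intervals were wide, from -1.62 to 0.70, from -1.24 to 1.56, from -0.63 to 1.71 and from -1.22 to 0.86.

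Genes around the axis were read in 5 lists, axis members included. Of 27 GH receptor and JAK-STAT pathway genes, 5 were higher and 2 lower against vehicle. Against pair-fed 3 were higher and 2 lower, both near the background. Over all genes tested 15.8% were higher and 17.5% lower against vehicle, and 13.3% and 13.8% against pair-fed. With hepatocyte scaling 1 of the list was higher and 15 lower against vehicle, and 2 higher and 17 lower against pair-fed. On that scale 2.31% of all genes were higher and 53.7% lower against vehicle, and 1.64% and 55.9% against pair-fed. The list's median log2 difference was 0.04 and 0.06, and that of all genes 0.0024 and -0.0008. Prlr, the prolactin receptor, which also signals through JAK2 and STAT5, had 1019 to 1415 normalized counts with vehicle, 2200 to 3268 with GDF15 and 671.9 to 1706 with pair-feeding. It rose by 1.19 ± 0.18 (log2, SE, adjusted p = 2.65e-09) and 1.07 ± 0.18 (adjusted p = 1.81e-07), with no overlap with the other groups. Stat3, the mediator of interleukin 6 signals, rose by 0.48 (adjusted p = 0.00578) and 0.79 (adjusted p = 2.80e-06), and with hepatocyte scaling the values were 0.15 (adjusted p = 0.392) and 0.43 (adjusted p = 0.00747). Sh2b1, an adaptor that binds JAK2, rose by 0.21 and 0.19 (adjusted p = 0.00404 and 0.0141), less than the shift of that scaling. On the hepatocyte scale its sign turned, to -0.10 (adjusted p = 0.0844) and -0.14 (adjusted p = 0.0134). Grb10, an adaptor that restrains the insulin and IGF1 receptors, was lower by -0.67 in both (adjusted p = 0.00290 and 0.00376).

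Among IGF ligands, receptors and binding proteins, 5 of 21 tested genes were higher and 5 lower against vehicle, with a median of -0.11. Against pair-fed 5 of 19 were higher and 3 lower, with a median of 0.05. Over all genes 33.3% passed in either direction against vehicle and 27.1% against pair-fed. With hepatocyte scaling 2 of 22 were higher and 9 lower against vehicle, where 2.31% and 53.7% of all genes were. Against pair-fed 1 was higher and 6 lower on that scale, where 1.64% and 55.9% of all genes were. Besides Igfbp3, Igfbp7, a binding protein of low IGF affinity, fell by 0.74 against vehicle (log2, adjusted p = 5.63e-06) and by 0.53 against pair-fed (adjusted p = 0.00203). Adamts1, an extracellular protease, fell by 0.72 (adjusted p = 8.08e-07) and by 0.80 (adjusted p = 4.98e-08). Insr, the insulin receptor, rose by 0.27 (adjusted p = 0.000166) and 0.24 (adjusted p = 0.00103), less than the shift that hepatocyte scaling makes. On that scale its sign turned, to -0.05 (adjusted p = 0.458) and -0.09 (adjusted p = 0.135). Igf1r, the IGF1 receptor, had log2 differences of -0.39 (adjusted p = 0.115) and -0.03 (adjusted p = 0.920).

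Of 28 liver genes that depend on the male GH pattern, 16 were higher and 2 lower against vehicle, with a median log2 difference of 0.84. Against pair-fed 11 were higher and 2 lower, with a median of 0.59. Over all genes 15.8% were higher and 17.5% lower against vehicle, and 13.3% and 13.8% against pair-fed. With hepatocyte scaling 14 were higher and 2 lower against vehicle, where 2.31% and 53.7% of all genes were. Against pair-fed 10 were higher and 4 lower on that scale, where 1.64% and 55.9% of all genes were. The count of the list rested on some of the mice. Without GDF15 replicate 6 it was 11 higher and 2 lower against vehicle, and 8 higher and 5 lower against pair-fed. Without PairFed replicate 1 it was 10 higher and 3 lower against pair-fed. In replicates 1 to 3 alone 3 were higher and 2 lower against vehicle, and in replicates 4 to 6 alone 16 of 27 were higher and 0 lower, where 21.9% and 18.9% of all genes passed in either direction. Against pair-fed these fits gave 3 higher and 3 lower of 27, and 10 higher and 0 lower of 26. Of all genes, 23.1% and 16.7% passed there. Hsd3b5, a steroid-metabolizing enzyme of male liver, had 0 to 58.2 normalized counts with vehicle, 17.98 to 2361 with GDF15 and 4.31 to 78.5 with pair-feeding, a log2 difference of 5.28 (adjusted p = 0.000142) and 4.47 (adjusted p = 0.00187). Mup1, Mup7 and Mup12, major urinary protein genes, rose by 3.71, 4.93 and 3.83 against vehicle (adjusted p = 5.98e-07, 1.22e-05 and 0.000363). Mup genes are near copies of one another, so how reads were divided among them is uncertain. Mup20 of the same family and Gstp1 were the 2 that were lower, by -0.75 and -0.41 against vehicle (adjusted p = 0.00258 and 0.00373).

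Of 24 tested genes of the female GH pattern, 8 were higher and 2 lower against vehicle, with a median of 0.17. Against pair-fed 5 were higher and 0 lower, with a median of 0.16. Over all genes 15.8% were higher and 17.5% lower against vehicle, and 13.3% and 13.8% against pair-fed. edgeR's quasi-likelihood test, which kept 21 of them, called 5 higher and 2 lower against vehicle, 7 of 21 where the same tool passed 34.6% of 12992 genes. Against pair-fed it called 5 of 21, where it passed 27.9%. With hepatocyte scaling 5 of 26 were higher and 5 lower against vehicle, where 2.31% and 53.7% of all genes were. Slc22a26, an organic anion transporter gene, had 9.03 to 40.7 normalized counts with vehicle, 73.5 to 338 with GDF15 and 18.1 to 51.1 with pair-feeding, a log2 difference of 2.84 (adjusted p = 7.00e-14) and 2.29 (adjusted p = 1.55e-09). Cyp17a1, a steroid hydroxylase, rose by 0.83 (adjusted p = 3.63e-07) and 1.16 (adjusted p = 5.74e-13).

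Among 22 insulin- and FOXO1-responsive genes, the group to which Igfbp1 belongs, 11 were higher and 3 lower against vehicle. Against pair-fed 12 were higher and 2 lower, and the median was 0.32 in both comparisons. Over all genes 15.8% were higher and 17.5% lower against vehicle, and 13.3% and 13.8% against pair-fed. With hepatocyte scaling 3 of the list were higher and 4 lower in each comparison. Of all genes, 2.31% were then higher and 53.7% lower against vehicle, and 1.64% and 55.9% against pair-fed. The lower calls against pair-fed were 0 in edgeR, without independent filtering and in the fit of 12 mice, and 0 to 3 with 1 mouse left out. In replicates 1 to 3 alone 7 were higher and 4 lower against vehicle and 6 higher and 5 lower against pair-fed. Replicates 4 to 6 alone gave 9 higher and 0 lower in each. Of all genes, 21.9% and 23.1% passed in replicates 1 to 3, and 18.9% and 16.7% in replicates 4 to 6. Pck1, the gluconeogenic carboxykinase, rose by 0.88 (adjusted p = 0.0106, and 0.0528 with hepatocyte scaling) and 0.98 (adjusted p = 0.00485), and Tat, tyrosine aminotransferase, by 1.40 (adjusted p = 0.00721) and 1.30 (adjusted p = 0.0158). Pdk4, a brake on pyruvate oxidation that fasting induces, fell by 1.41 on the log2 scale against vehicle (adjusted p = 0.00830) and by 1.13 against pair-fed (adjusted p = 0.0473), and Fgf21, a fasting hormone of the liver, by 0.96 (adjusted p = 0.00323) and by 0.70 (adjusted p = 0.0458). In all 5 lists, 0 genes passed between pair-fed and vehicle mice.

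**Figure D4:**
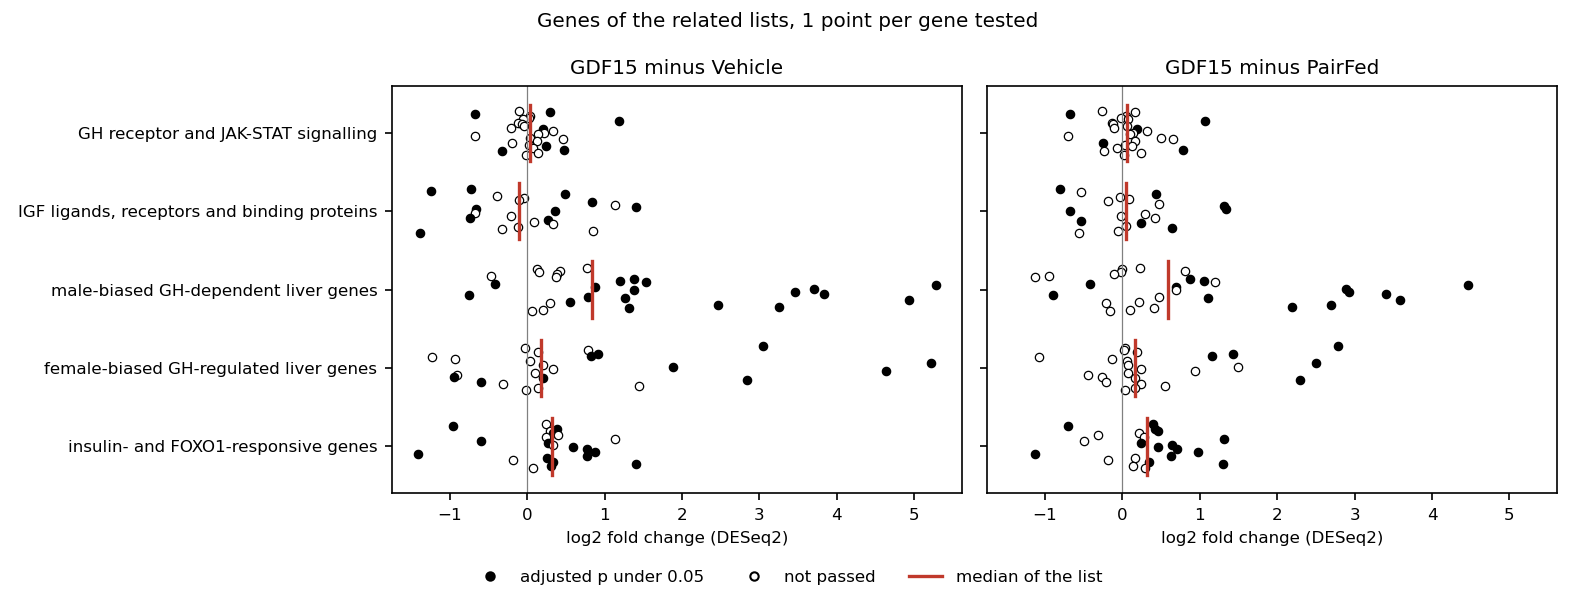
DESeq2 log2 fold change (horizontal axis) of every tested gene in the 5 lists, for GDF15 minus Vehicle and GDF15 minus PairFed; filled points have an adjusted p under 0.05 and the red line is the median of the list. The male-biased list reaches 5.28 with a median of 0.84 against vehicle, and the JAK-STAT list stays near 0 with Prlr at 1.19 as its highest point.

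The genes whose levels ran most like each axis gene were sought by the mean absolute difference of centred log2 levels over 18 mice, among 10882 genes. Igfbp2 was nearest to Scnn1a, an epithelial sodium channel subunit gene, at 0.200, and Igfbp3 to Col14a1, a collagen gene, at 0.145 and Plvap, an endothelial gene, at 0.151. Igf1 was nearest to Pigr (0.0930), Igfals to Ahcy (0.183), Ghr to Mgam (0.0460) and Stat5b to Spg20 (0.0770). Socs2 was nearest to Gbp11 at 0.400, Cish to Phlda1 at 0.598, Bcl6 to Ppp1r3b at 0.565 and Igfbp1 to Abtb2 at 0.367. This distance grows with a gene's own spread, so it cannot be compared between axis genes. Divided by the gene's own mean absolute deviation it was 0.320 for Igfbp2, 0.330 for Ghr, 0.360 for Igf1, 0.480 for Socs2, 0.510 for Igfbp1, 0.530 for Cish and 0.610 for Bcl6.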

How the data were processed

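Liver RNA of 18 mice was sequenced in 3 groups of 6, taken from the sample titles. Per the study's methods and the submitters' processing notes, the authors used Trim Galore for trimming and Salmon for quantification, with mm10 as the named build (versions not given in the sources used here), and deposited estimated counts per gene symbol, as whole numbers not scaled for depth. Salmon divides reads among near-identical genes, so values within gene families are uncertain.

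All 16245 genes and all 18 libraries (16508864 to 35301853 counts) were fitted with DESeq2 1.42.0 in R 4.3.3, with group as the only factor, median-of-ratios size factors, Wald tests, no shrinkage and independent filtering, as the study used DESeq2. A gene passed at a Benjamini-Hochberg adjusted p under 0.05. Normalized counts are estimated counts divided by the size factor. The procedure was tested on simulated data. Alternatives were edgeR 4.0.16 (quasi-likelihood, TMM), TMM size factors, size factors from 12 hepatocyte genes, a filter of 10 counts in 6 samples, no independent filtering, 12-sample fits, a replicate block, replicates 1 to 3 or 4 to 6 alone, and leaving out each mouse. Within-group correlations used log2(normalized count + 1) and 100000 two-sided permutations of mice within groups, or exact permutation within 1 group, and were chosen after the values were seen, as was setting mice 1 to 3 beside mice 4 to 6 within a group. Nothing states that the samples came from separate experiments, so p-values measure the spread between these mice.

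The members, lists and alternatives were chosen with earlier results of these data known. The 10 members were all named. In each list, the genes named were up to 4 with the largest fold changes among those averaging 50 or more normalized counts that passed in both GDF15 comparisons, except Insr, Igf1r, Mup20 and Gstp1, which were chosen after their values were seen. Of the listed genes, Sult2a5, Sult2a6 and Moxd1 were not analysed here, and the proteins of the members were not compared. Reads carry no molecular identifiers, and counting error was not estimated apart from the spread between mice.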

Additional observations from a re-analysis of the deposited data

Results flagged for a closer look

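Bcl6 in PairFed replicate 3 stood apart, at 168.1 normalized counts where the other 5 pair-fed mice had 712.0 to 1329. On the log2(normalized count + 1) scale the gap to the nearest mouse was 0.698 of the group's range. This was above the limit of Dixon's test for 6 values, which was applied on that scale only. Over 10 genes and 3 groups, 30 sets of 6 values were examined in this way, of which chance alone would pick about 1.5. The same mouse had 863.2 for Cish and 361.2 for Socs2.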

How the results depend on the processing

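The number of axis genes past the threshold against vehicle was 5. It was 3 with size factors from the hepatocyte list, which lost Ghr and Igf1, 1 with a log2 fold change above 1 as well, and 5 to 6 with each mouse left out. Against pair-fed it was 4. It was 3 in edgeR, 2 with a log2 fold change above 1 as well, and 3 to 5 with each mouse left out. Size factors from the hepatocyte list lost Igf1 and Igfbp1 against pair-fed (adjusted p = 0.437 and 0.147). They gained Ghr there, which was lower (-0.17, adjusted p = 0.0186). Pair-fed against vehicle stayed at 0 in all of these. Igfbp2 and Igfbp3 kept their direction and an adjusted p under 0.05 under every alternative run in both GDF15 comparisons. Igfbp1 against pair-fed lost the call in 14 of 18 fits with 1 mouse left out. Igfals against vehicle missed it with replicates 1 to 3 alone (1.06, adjusted p = 0.0687).

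Signs of axis genes turned as follows, on the log2 scale, and the cause was not tested. With hepatocyte size factors the values against vehicle were -0.0226 for Ghr, -0.18 for Stat5b and -0.23 for Socs2, and against pair-fed -0.17 for Ghr, -0.11 for Stat5b and -0.11 for Bcl6. With replicates 1 to 3 alone they were -0.0882 for Stat5b, 0.61 for Cish, -0.37 for Bcl6 and -0.77 for Igfbp1 against vehicle, 0.30 for Cish, -0.76 for Bcl6 and -0.84 for Igfbp1 against pair-fed, and -0.0227 for Igf1, -0.0010 for Igfbp3 and 0.0733 for Igfbp1 between pair-fed and vehicle. With replicates 4 to 6 alone Socs2 was -1.54 against vehicle and -1.14 against pair-fed, and Cish was -0.0271 between pair-fed and vehicle. With each mouse left out, values ran from -0.69 to 0.37 for Socs2 and from -0.72 to 0.27 for Cish against vehicle, from -0.23 to 0.70 for Socs2, from -0.88 to 0.0447 for Cish and from -0.19 to 0.45 for Bcl6 against pair-fed, and from -0.14 to 0.52 for Cish and from -0.0472 to 0.0677 for Igfbp3 between pair-fed and vehicle.

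The replicate numbers were not taken as pairing the mice, because nothing states that they do. In no comparison were all 6 same-number correlations over 0.1, a limit that cannot decide whether mice were paired. Same-numbered mice had a mean correlation of -0.03 between GDF15 and vehicle, 0.03 between GDF15 and pair-fed and 0.20 between pair-fed and vehicle. Differently numbered mice averaged 0.01, -0.01 and -0.04. A mouse correlated best with its own number in 0, 2 and 1 of 6 cases. Between pair-fed and vehicle mice the 6 correlations were all above 0, at 0.0435 to 0.596, and 4 were over 0.1. With the replicate block 5 axis genes passed against vehicle, 5 against pair-fed (Ghr and Igfals gained, Igfbp1 lost) and 0 between pair-fed and vehicle, where Cish turned to -0.24.

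Socs2, Cish, Bcl6 and Igfbp1 each had at least 56 counts in every library. With 6 mice a group, their pooled SDs within groups were 1.06, 1.41, 1.14 and 0.942 on the log2(normalized count + 1) scale. The parts of sequencing depth and of the spread between mice in their precision were not tested.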
